A study of Mus musculus with 2 samples.

Results

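The genes described are 3 early growth response factors (Egr1, Egr2 and Egr3), their corepressors Nab1 and Nab2, the serum response factor Srf and its 3 ternary complex partners Elk1, Elk3 and Elk4. They were taken by symbol, 9 of 55536 annotated genes, and the symbols were joined by gene identifier to the gene and transcript tables of both libraries. The RNA came from a nuclear fraction (called nucleoplasmic in one label and nucleus in another) of bone marrow derived macrophages of strain C57BL/6J. The cells had been given 100 ng/ml Lipid A, the part of bacterial lipopolysaccharide that Toll-like receptor 4 recognises, for 10 min. Ribosomal RNA was removed before the total RNA was sequenced. There was 1 group of 2 libraries, replicate 1 made from 1 ug and replicate 2 from 500 ng of RNA. They are separate biosamples with 1 donor identifier, sex and age were not collected, and nothing states that the cultures came from separate animals, so part of the spread between the libraries may be technical. Neither unstimulated cells nor another time point is analysed here. No value below therefore measures induction. The words induced and constitutive only label the sets compared, EGR with NAB and Srf with ELK, and were not shown for any gene.

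SRF is a MADS-box transcription factor that binds the CArG box. At immediate early genes it is joined by a ternary complex factor, an ETS-domain protein that binds an ETS motif beside the CArG box and is switched on when ERK phosphorylates it, so these activators are made before a stimulus arrives. EGR1, EGR2 and EGR3 are zinc finger factors encoded by such immediate early genes, and EGR1 is a rapid product of Toll-like receptor signalling in macrophages. NAB1 and NAB2 bind the EGR proteins and repress their activity; NAB2 is known as a product of EGR-driven transcription, and so part of a negative feedback loop.

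Replicate 1 held 19153465 expected counts on annotated genes and replicate 2 held 11622346. All 10 macrophage markers examined were detected, which here means 1 TPM (a level per length of transcript, scaled to the sum of the library) or more in both libraries, and they summed to 3735 and 2270 TPM. Of 6 fibroblast markers, 5 smooth muscle, 4 B cell and 4 T cell markers none was detected, and each of these sets summed to at most 2.0 TPM in either library. The second quantification, a transcript table that the authors made directly from the reads, listed Thy1 of the fibroblast set at 4.07 and 8.71 TPM and Cd3d of the T cell set at 2.53 and 10.1 TPM, where the first had 0 to 2 counts. Neutrophil markers summed to 8.01 and 6.63 TPM, with Elane and Ly6g at 0. Mmp8 (3.42 and 2.85 TPM) and S100a8 (1.53 and 1.75 TPM) were detected, and S100a9 stood at 2.50 and 0.93 TPM. Endothelial markers summed to 5.99 and 5.15 TPM, mostly from Kdr (5.51 and 4.35 TPM, detected). Erythroid markers summed to 4.47 and 5.78 TPM, mostly from Alas2 (4.47 and 5.53 TPM, detected). Mitochondrially encoded genes held 5.61% and 7.03% of TPM. In bulk RNA, fewer cells of a type and less RNA per cell cannot be told apart.

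Promoter sequences show which of these genes carry the binding motifs of the others. The RefSeq promoter table (build GRCm38.p6) matched 7 of the 9 genes by symbol, with 13 start sites. Egr1 and Egr3 had no entry. The 250 bases before each start were searched on both strands for the CArG box (CC, then 6 bases of A or T, then GG), the ETS motif CCGGAA, the EGR motif GCGNGGGCG and the cyclic AMP response element TGACGTCA. Among all 32851 promoters of the table, 1.47% held a CArG box, 12.0% the ETS motif, 4.70% the EGR motif and 1.55% the cyclic AMP response element. The motifs do not contain one another, and a match is a description of letters, not a measured binding site. Egr2 and Srf are shown because they were the genes with CArG boxes. Each sequence runs 5′ to 3′ on the gene's strand, with matches in capitals, and holds no annotated exon base of its gene. Both Egr2 windows lie downstream of the starts of the models Egr2-205 and Egr2-206, which had 0 counts in both libraries.
Egr2, annotated start (chr10:67537619-67537868, plus strand): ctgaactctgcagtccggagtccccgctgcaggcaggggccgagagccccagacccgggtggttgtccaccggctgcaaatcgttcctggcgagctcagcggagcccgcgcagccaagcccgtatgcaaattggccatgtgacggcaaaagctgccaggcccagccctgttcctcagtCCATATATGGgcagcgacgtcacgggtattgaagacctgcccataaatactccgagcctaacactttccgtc
Egr2, upstream RefSeq start (chr10:67537316-67537565, plus strand): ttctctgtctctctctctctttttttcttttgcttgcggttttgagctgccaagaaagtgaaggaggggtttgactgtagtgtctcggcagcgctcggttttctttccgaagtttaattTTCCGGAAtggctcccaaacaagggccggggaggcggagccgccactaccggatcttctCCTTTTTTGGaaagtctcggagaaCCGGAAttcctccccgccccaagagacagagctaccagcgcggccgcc
Srf (chr17:46556176-46556412, minus strand): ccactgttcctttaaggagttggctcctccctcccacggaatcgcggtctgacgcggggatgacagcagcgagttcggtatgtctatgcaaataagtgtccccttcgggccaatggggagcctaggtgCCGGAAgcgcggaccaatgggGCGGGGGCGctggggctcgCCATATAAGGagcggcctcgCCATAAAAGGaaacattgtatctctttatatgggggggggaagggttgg
In the first of these the capitals mark a single CArG box, 72 to 63 bases before the Egr2 start used by the annotation. The second window ends at a RefSeq start 303 bases further upstream, where no GENCODE transcript begins. It holds a CArG box at the same distance from its start, an ETS match 14 bases after that box, and, further upstream, a palindrome that reads as the ETS motif on both strands. In Srf the capitals mark, in order, an ETS match, an EGR match and 2 CArG boxes that lie 10 bases apart, so the window of the serum response factor gene holds its own factor's motif.

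Nab1 had 3 EGR matches in its 250 bases, a number reached by 46 of the 32851 promoters (0.140%). Its window holds 80.8% G and C, against a median of 52.4% over all promoters, and the EGR motif is itself rich in G and C. No GENCODE transcript begins at the RefSeq start used for Nab1. All 3 matches lie downstream of the annotated start of Nab1-201 and upstream of that of Nab1-205, so they precede the RefSeq start but not every annotated start. The window overlaps annotated first exon sequence of Nab1, so the matches alone are shown, with 10 bases on each side, in the direction of the gene (minus strand); the capitals of the first are the motif read on the other strand.
Nab1 141 to 133 bases before the start (chr1:52500571-52500599): gccccgcggcCGCCCACGCcgggatctgc
Nab1 109 to 101 bases before the start (chr1:52500539-52500567): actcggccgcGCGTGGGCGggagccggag
Nab1 38 to 30 bases before the start (chr1:52500468-52500496): gcggggcgggGCGGGGGCGgcggaggtgg
Elk4 had an ETS match 68 to 63 bases before its first start and an EGR match before another start. Nab2, Elk1 and Elk3 had none of these letters in the windows searched, and no window of the 7 genes held the cyclic AMP response element.

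**Figure D1:**
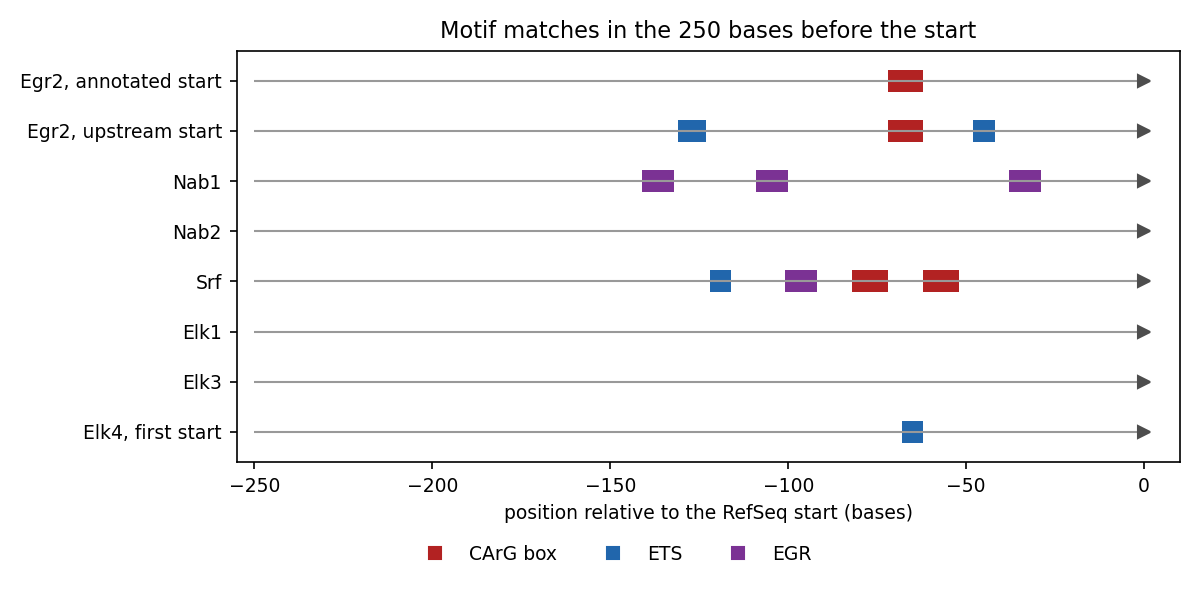
Positions of motif matches in the 250 bases before a RefSeq start, for 7 genes (1 start each, 2 for Egr2); the x axis is the distance from the start in bases, arrowheads mark the start and coloured boxes the matches. CArG boxes appear in the Egr2 and Srf windows, 3 EGR matches in Nab1, and no match in Nab2, Elk1 or Elk3.

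All 9 genes were detected, beside 13116 of all annotated genes (23.6%) and 10123 of the protein-coding genes (46.0%). Ordered by mean TPM, Elk4 came first at 27.8 ± 1.02 (SD, n = 2, as for all means here), then Egr1 (24.7 ± 25.8), Elk1 (13.3 ± 0.283), Nab2 (12.0 ± 0.926), Nab1 (10.3 ± 0.354), Elk3 (6.88 ± 0.120), Egr2 (5.32 ± 2.91), Srf (4.50 ± 0.962) and Egr3 (4.29 ± 1.31). The ranges over the libraries did not overlap between Elk1 and Nab2, between Nab2 and Nab1 or between Nab1 and Elk3. They overlapped for the other 5 neighbouring pairs, so Egr1 is not resolved from Elk4 or Elk1, and Elk3, Egr2, Srf and Egr3 are not resolved from the next gene among these 4. The order of Nab2 and Nab1 was not kept by the second quantification, where the ratio of Nab1 to Nab2 was 1.05 in both libraries. There the ranges of Elk1 (6.27 and 9.16 TPM) and Nab2 (5.44 and 7.85 TPM) overlapped, although Elk1 was higher in each library. The median detected protein-coding gene stood at 10.5 TPM, close to Nab1. Elk4 lay at the 79.6th percentile of those 10123 genes and Egr3, the lowest of the 9, at the 22.0th.

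**Figure D2:**
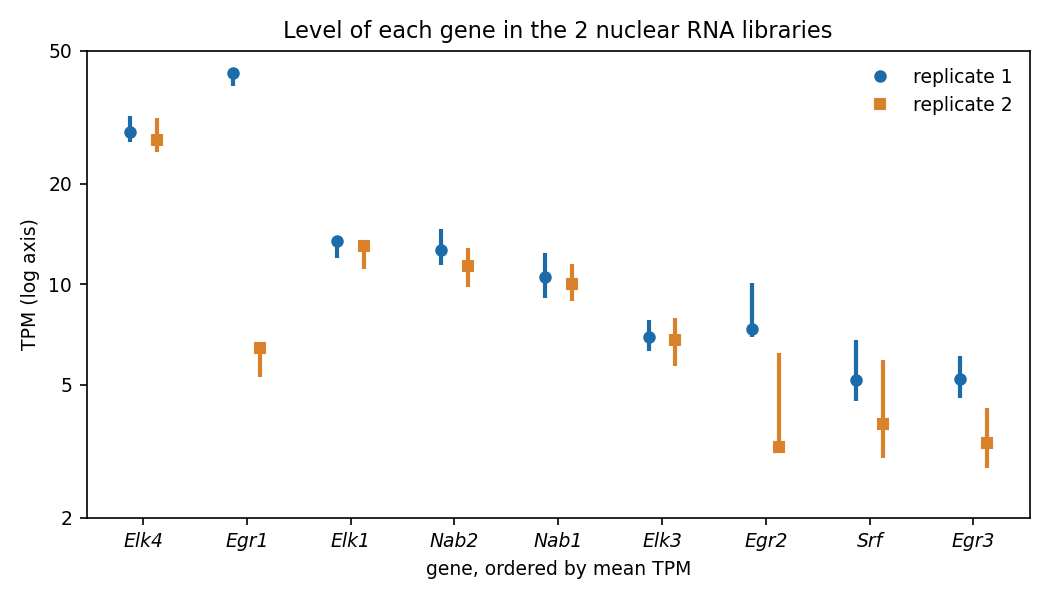
TPM (log axis) of each gene in replicate 1 (circles) and replicate 2 (squares), ordered by mean; vertical lines are the deposited TPM intervals, which are placed around the posterior mean, so a TPM can lie outside its own interval. Egr1 lies at 42.9 TPM in replicate 1 and 6.43 in replicate 2, while both libraries lie close together for the ELK and NAB genes.

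Egr1 (chromosome 18, 34859823 to 34864984 of mm10, plus strand), the EGR gene best known as an immediate early gene, held 2932 expected counts in replicate 1 and 271 in replicate 2. After TMM scaling, which adjusts for depth and composition, its counts were 6.46-fold higher in replicate 1 (95% counting interval 5.70 to 7.34). Among 10123 protein-coding genes detected by the first quantification it had the largest difference in log2(TPM + 1), by the first quantification and by the second. By TMM-scaled counts of the second quantification it ranked 2 of 9950 such genes. In replicate 1 Egr1 was the highest of the 9 genes, and in replicate 2 it lay below 5 of them.

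Egr2 (chromosome 10, 67535475 to 67542188, plus strand), which is also a factor of myeloid development, stood at 7.37 TPM (replicate 1) and 3.26 TPM (replicate 2). Its counts, 450 and 129, gave a ratio of 2.08 (1.71 to 2.55), just past 2-fold, and its deposited TPM intervals (6.97 to 10.1 and 3.22 to 6.23) did not overlap. Egr3 (chromosome 14, 70077203 to 70082614, plus strand) stood at 5.21 and 3.36 TPM with 401 and 176 counts. Its ratio was 1.36 (1.14 to 1.63), short of 2-fold, and its intervals (4.58 to 6.12 and 2.81 to 4.27) did not overlap. All 3 EGR genes were thus higher in replicate 1, by very different amounts.

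Past 2-fold higher in replicate 1 were 2 of the 9 genes, Egr1 and Egr2, beside 169 of 11526 genes with a mean of at least 50 scaled counts (1.47%). Another 53 genes (0.460%), none of the 9 among them, lay more than 2-fold lower. Deposited intervals lying wholly higher in replicate 1 were found for the 3 EGR genes and for none of the other 6, beside 2191 of the same 11526 genes (19.0%), so that count is a weaker contrast with the background. With 1 library on each side there is no replicate check of a difference between libraries, no p-value is given, and intervals cover counting error only.

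**Figure D3:**
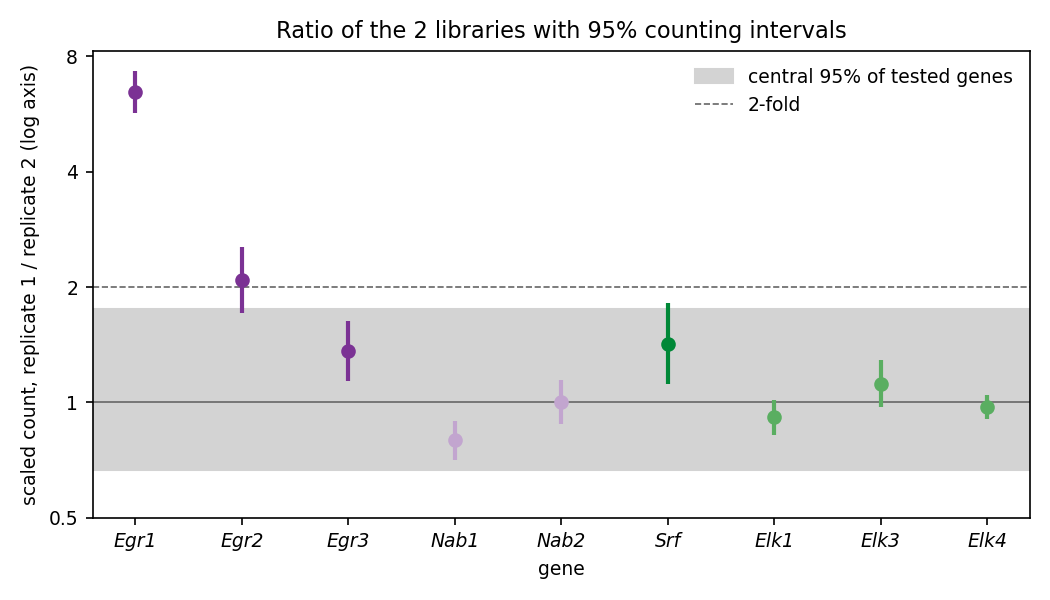
Scaled count of replicate 1 divided by that of replicate 2 (log axis) for each gene, with 95% exact counting intervals as vertical lines; the grey band holds the central 95% of 11526 tested genes and the dashed line is 2-fold. Egr1 (6.46) and Egr2 (2.08) lie above the dashed line, and the other 7 genes lie between 0.796 and 1.42.

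The EGR genes summed to 55.5 TPM (replicate 1) and 13.1 TPM (replicate 2), and Egr1 made up 77.3% and 49.3% of those sums. Other measures moved with this difference. Macrophage markers were higher in replicate 1 for 8 of 10 genes, with a median of 0.61 on the centred log2(TPM + 1) scale (replicate 1 minus replicate 2, after subtracting the 0.10 of the median gene); Cebpb and Cd14, both known to respond to lipopolysaccharide, passed 2-fold. Of 3 nuclear noncoding RNAs examined, Malat1 was lower in replicate 1, at 19912 against 30438 TPM, and by -0.16 on the log2 scale of TMM-scaled counts. Neat1 (1513 and 1781 TPM) and Xist (331 and 327 TPM) differed by 0.0019 and -0.03 on that count scale. Replicate 1 was also deeper and had more input RNA. The part of any of these in the EGR difference was not tested.

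By the same difference, 1 of 7475 protein-coding genes with a mean of 5 TPM or more exceeded Egr1 (2.46). It was Gm26992, at 11.9 TPM in replicate 1 and listed at 0 in replicate 2, chosen after its value was seen. Being undetected in replicate 2, it was outside the genes ranked above. The second quantification gave it 48.1 TPM in replicate 1 and 8.05 TPM in replicate 2. The 5 protein-coding genes nearest to Egr1 were mt-Co3 (2.40), Il1b (2.16), Cxcl10 (2.13), Rps21 (2.04) and Cxcl1 (2.02). Il1b, Cxcl10 and Cxcl1 encode inflammatory cytokines, mt-Co3 a mitochondrial oxidase subunit and Rps21 a ribosomal protein. For Il1b, which stood at 31.8 TPM in replicate 1, the level in replicate 2 was 5.81 TPM. This likeness rests on 2 libraries only, and mt-Co3 and Rps21 can share reads with pseudogene copies.

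Nab1 (chromosome 1, 52457294 to 52500679, minus strand) stood at 10.5 TPM in replicate 1 and 10.0 TPM in replicate 2. Nab2 (chromosome 10, 127660918 to 127668568, minus strand) stood at 12.6 and 11.3 TPM. The deposited intervals overlapped for each gene, so each corepressor differed between the libraries by less than the width of these intervals. Nab2 counts, 612 and 364, had a ratio of 1.00 (0.880 to 1.15). Nab1 counts, 683 and 512, had a ratio of 0.796 (0.709 to 0.895), lower in replicate 1, although the TPM was slightly higher there. The gene's effective length was 2887 bases in replicate 1 and 3534 in replicate 2, since its reads were divided among transcripts differently, and the TPM and the count therefore give different directions.

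Set against the factors they bind, the NAB genes summed to 23.2 TPM and 21.4 TPM. The ratio of the NAB sum to the EGR sum was 0.417 in replicate 1 and 1.64 in replicate 2, and by the second quantification 0.444 and 1.60. EGR RNA thus exceeded NAB RNA in one library and NAB RNA exceeded EGR RNA in the other. Reads of Nab2 are uncertain, because 1050 of its exonic bases (35.7%) overlap the antisense gene Gm16229, at 3.0 and 1.05 TPM, and whether counting used strand is not given in the sources used here.

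Srf (chromosome 17, 46548329 to 46556175, minus strand) stood at 5.18 TPM (replicate 1) and 3.82 TPM (replicate 2). Its counts were few, 233 and 98, and gave a ratio of 1.42 (1.12 to 1.82). The deposited intervals overlapped. On the centred log2(TPM + 1) scale its difference was 0.26, and 20.2% of detected protein-coding genes had a larger one. Among the genes of the other ETS and MRTF lists, those nearest to Srf in this difference were Etv3 (0.24), Mrtfa (0.28), Erf (0.22), Etv6 (0.15) and Spi1 (0.43).

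The ternary complex factor genes were at steadier levels. Elk4 (chromosome 1, 132007607 to 132032612, plus strand), encoding the factor also called SAP-1, stood at 28.6 and 27.1 TPM in replicates 1 and 2. Elk1 (chromosome X, 20933395 to 20950608, minus strand), the classical ERK substrate of this family, stood at 13.5 and 13.1 TPM. Elk3 (chromosome 10, 93247414 to 93311135, minus strand), whose product Net represses its targets until it is phosphorylated, stood at 6.96 and 6.79 TPM. Intervals overlapped between libraries for all 3. Their count ratios were 0.974 (0.904 to 1.05) for Elk4, 0.915 (0.823 to 1.02) for Elk1 and 1.12 (0.972 to 1.29) for Elk3, each interval holding 1. Elk4 made up 58.3% and 57.7% of the summed ELK TPM, and the ELK sum was 9.46 and 12.3 times the level of Srf. Elk3 shares 316 exonic bases with Cdk17 on the other strand, and Elk1 and Elk4 share under 2% of theirs with any 1 neighbouring gene.

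The study's own labels name no contrast between these genes, so the class called induced here (EGR and NAB) and the class of activators (Srf and ELK) are compared by value. Their median levels were 8.48 ± 2.89 TPM and 10.1 ± 0.202 TPM. In replicate 1 the medians were 10.5 and 10.2 TPM and in replicate 2 they were 6.43 and 9.93 TPM. The median difference between libraries was 0.41 for the 5 EGR and NAB genes and -0.05 for the 4 Srf and ELK genes, on the centred log2(TPM + 1) scale, where the median detected protein-coding gene stands at -0.01. The classes did not separate cleanly. On this scale Nab1 (-0.04) and Nab2 (0.04) lay near Elk1 (-0.06), Elk3 (-0.07) and Elk4 (-0.03), and Srf (0.26) lay nearest to Egr3 (0.41). On the log2 scale of TMM-scaled counts Nab1 (-0.33) lay below every ELK gene, and Srf (0.50) lay above Egr3 (0.44).

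By the second quantification the EGR and NAB genes, Elk1 and Elk3 stood lower in both libraries, and Srf and Elk4 stood lower in replicate 1 and higher in replicate 2. The median gene had 0.592 of its first value in replicate 1 and 0.862 in replicate 2. Egr1 stood at 17.8 and 4.31 TPM there, Egr2 at 4.0 and 3.18, and Egr3 at 3.32 and 2.57. The centred differences of the 3 EGR genes were 2.19, 0.63 and 0.65, so the order of Egr2 and Egr3 was not kept. Srf stood at 4.97 and 4.69 TPM, a centred difference of 0.44. Elk4 stood at 25.9 and 31.0 TPM, above Egr1 in both libraries, while in the first quantification the ratio of Egr1 to Elk4 was 1.50 in replicate 1 and 0.237 in replicate 2.

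Nuclear RNA can hold transcripts that are not fully spliced, and the annotation lists such models. Transcripts not annotated as protein coding held 15.1% of the 9 genes' TPM in replicate 1 and 20.2% in replicate 2 (17.6 ± 3.57%). Over all 10118 detected protein-coding genes with transcript TPM the share was 27.1% and 28.1%, and for the median gene 28.9% and 29.7%. The 9 genes ranged widely: Egr1, Egr2 and Nab2 have no such model, while Egr3 had the highest share, 69.0 ± 1.56%, which 9.63% of those genes exceeded. In Egr3 this is the model Egr3-202, a single exon that begins 157 bases before the second exon of the coding model Egr3-204 and has 221 bases of its own. It held 70.1% and 67.9% of the gene's TPM. Its remaining bases are shared with coding models, so the split rests on few distinguishing positions. By the second quantification it held 45.6% and 55.5%.

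Egr1 had 2 coding models. Egr1-202 held 84.2% of its TPM in replicate 1 and 93.8% in replicate 2. Egr1-201, which begins 1384 bases further upstream and has 1448 bases found in no other model, held the remaining 15.8% and 6.22%, from 649 and 24.7 expected counts. The second quantification gave Egr1-201 18% and 7.58%, so the longer model had the greater share in replicate 1 in both tables. Egr2-201, which begins at the start whose promoter is printed above, held 87.1% and 96.3% of Egr2. The second quantification gave it 53.3% and 45.0%, and gave 26.6% and 32.1% to Egr2-204, which was at 0 in the first.

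Among the corepressors, Nab1-201 held 53.4% and 45.7% of Nab1 and Nab1-205, with a different annotated start, 23.4% and 54.3%. The retained intron model Nab1-202 was at 1.51 TPM in replicate 1 and listed at 0 in replicate 2. Nab2-202 held 54.1% and 53.4% of Nab2 and Nab2-201 43.4% and 46.6%. By the second quantification Nab1-205 led with 45.4% and 62.4%, against 25.3% and 25.7% for Nab1-201. Nab2-201 led there with 70.0% and 66.9%, against 23.0% and 28.9% for Nab2-202. For Srf, Srf-201 held 80.9% and 68.3%, and its retained intron models Srf-203 and Srf-204 rested on 2.43 to 6.08 expected counts, too few to compare. The second quantification gave Srf-201 only 36.6% and 38.7%.

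In the ELK genes, Elk4-202 held 49.0% and 48.6% of Elk4, and Elk4-207, a model of the nonsense-mediated decay type with 1049 bases outside all coding models, held 33.7% and 35.3%. By the second quantification these were 20.7% and 25.3% for Elk4-202 and 15.6% and 22.4% for Elk4-207. Elk4-204, a noncoding model at 0 in the first, held 31.5% and 14.2% there, so the division of Elk4 among its models is not settled. The retained intron model Elk1-202, with 1833 bases outside coding models, held 27.2% and 17.8% of Elk1, beside Elk1-201 at 72.8% and 82.2%. Elk3-201 held 90.9% and 73.8% of Elk3, and the retained intron model Elk3-203 held 9.06% and 26.2%, on 10.0 and 18.5 counts, and by the second quantification 22.1% and 26.8%.

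**Figure D4:**
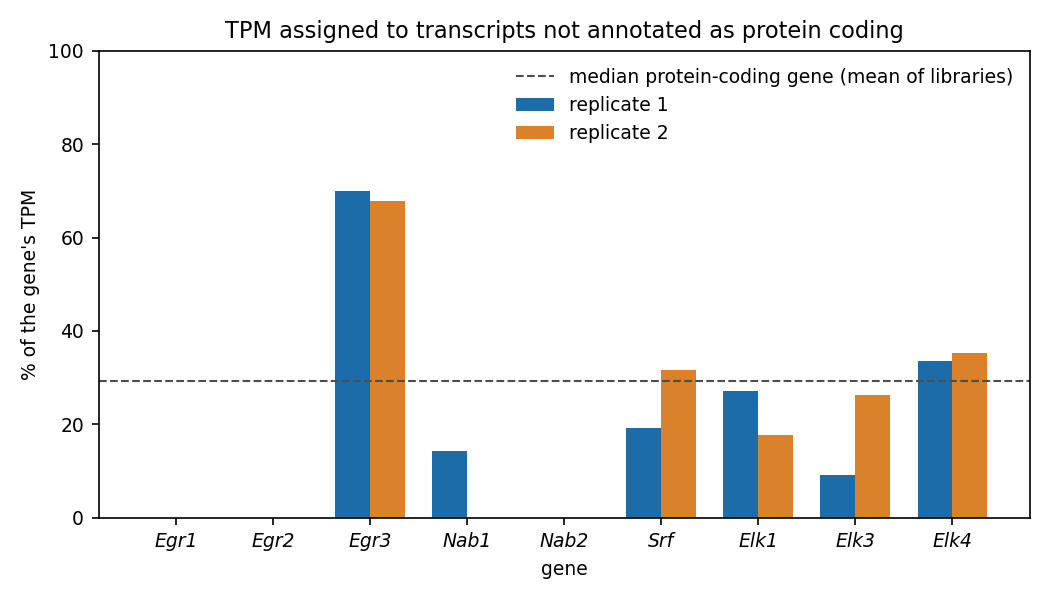
Percent of each gene's TPM assigned to transcripts not annotated as protein coding, by library; the dashed line is the share of the median detected protein-coding gene, averaged over the libraries. Egr3 stands at 70.1% and 67.9%, Elk4 at 33.7% and 35.3%, and Egr1, Egr2 and Nab2, which have no such model, at 0.

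The pathway around these factors was examined through lists. All 15 genes listed for the ERK cascade, which carries the signal to the ternary complex factors, were detected, and none was past 2-fold between libraries. They were higher in replicate 1 for 7 and lower for 8, with a median difference of -0.11. The most abundant were Map3k8, the kinase that links Toll-like receptors to ERK (62.5 and 48.5 TPM), and Araf (50.5 and 52.4 TPM). The lowest were the kinases Rps6ka2 (4.57 and 5.64 TPM) and Rps6ka5 (2.26 and 2.43 TPM), and the largest difference was that of Rps6ka1 (0.53). The list also holds kinases beside or downstream of ERK, such as Mapk14 and Mapkapk2. These values are RNA levels, and the activity of the kinases was not tested.

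Of 16 other immediate early genes of SRF and its partners, 11 were detected and all 11 were higher in replicate 1, with a median difference of 1.18. Past 2-fold were 8 of them (Fos, Fosb, Junb, Ier2, Btg2, Nr4a1, Dusp1 and Zfp36), beside 1.47% of all tested genes. The list was chosen with earlier results of these data known, so these values describe the list and are not a test of it. The antiproliferative gene Btg2 had the largest difference, 1.92, from 65.4 and 15.3 TPM. Mcl1, which encodes a survival factor and was the most abundant (271 and 222 TPM), had a difference of only 0.19, and Zfp36, whose product destabilises AU-rich messenger RNAs, stood at 252 and 108 TPM. Ccn2 (0 and 2 counts) and Egr4, the fourth EGR gene (0 and 1 count), were at or under the 3 counts that a count of 0 allows. Egr1 therefore lay above every gene of this list in its difference, Egr2 below 8 of the 11, and Egr3 below 9.

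SRF acts with MRTF coactivators at cytoskeletal genes. Mrtfa stood at 46.7 and 35.5 TPM and Mrtfb at 15.3 and 14.0 TPM, while Myocd, the coactivator of muscle, was at 0 counts in both libraries. Of 12 cytoskeletal genes 7 were detected and none was past 2-fold; the median difference was 0.10. Actb (783 and 699 TPM) and Actg1 (285 and 162 TPM) were the highest, Actg1 also having the largest difference (0.71), and the smooth muscle genes Cnn1 (0.19 and 0.32 TPM) and Myl9 (0 in both) were the lowest. The 2 lists thus had different medians, 1.18 and 0.10. Whether SRF acts at these genes here was not tested, nor was the difference between the lists.

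**Figure D5:**
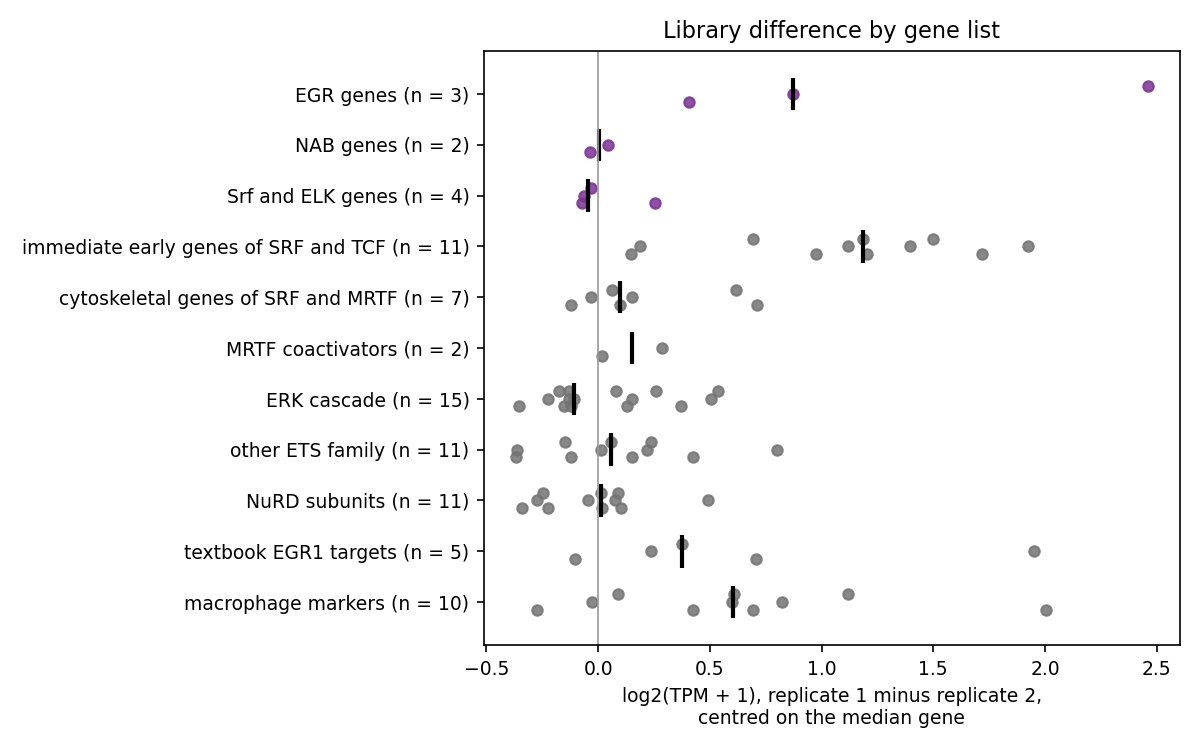
Difference between libraries on the centred log2(TPM + 1) scale for the detected genes of each list (points) with the list's median (vertical bar); n is the number of genes. The EGR genes and the immediate early genes (median 1.18) extend to the right. So do the macrophage markers (median 0.61, 2 of 10 below 0), up to Cebpb at 2.00. The textbook EGR1 targets (median 0.37, 1 of 5 below 0) reach 1.95 at Tnf. The NAB and ELK genes and the ERK cascade (median -0.11) lie nearer 0, and Srf is at 0.26.

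Of 13 other ETS genes, which bind like motifs without SRF, 11 were detected and none was past 2-fold, with 7 higher and 4 lower in replicate 1 and a median difference of 0.06. Etv3, which encodes an ETS repressor (49.5 and 39.0 TPM), and Elf2 (40.9 and 41.4 TPM) were the highest and exceeded Elk4. Spi1, which encodes the macrophage factor PU.1, stood at 35.4 and 24.2 TPM. Ets2 had the largest difference (0.80, from 6.51 and 3.02 TPM). Ets1 (0.37 and 0.25 TPM) and Erg (0 in both) were the lowest.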

How the data were processed

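Total RNA of a nuclear fraction was sequenced in 2 libraries of 1 group. Expected counts were deposited by the authors for each gene and transcript. Per the file headers and accompanying notes they rest on alignments to the mm10 transcriptome (GENCODE M21), and they were rounded here. TPM was deposited by the authors in the same tables. Interval bounds in TPM, a signal of 0 or more deposited beside them, were used to compare libraries gene by gene. The second quantification, deposited as transcript estimates made from the reads, was summed per gene. Aligner, counting programs and strand handling are not given in the sources used here.

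Entries naming no annotated gene (1.18% and 0.405% of counts) were left out. Counts were scaled with TMM (edgeR 4.0.16, R 4.3.3), or with DESeq2 1.42.0 size factors as an alternative. Ratios past 2-fold were counted among genes whose scaled counts averaged at least 50, after adding 1 to each. Counting intervals are exact binomial (Clopper-Pearson, 95%); reads carry no molecular identifiers, so counting error is all they cover. TPM differences used log2(TPM + 1), centred on the median gene averaging 1 TPM or more. The code of the 2-fold count was checked on simulated data with larger planted changes and an assumed spread. That check does not cover genes near 2-fold, such as Egr2. The members and lists were chosen with earlier results of these data known. Of each list the 2 highest, the 2 lowest and the gene with the largest difference were named, and any gene past 2-fold; of each member, the transcript with most TPM and the highest one not protein coding. Alternatives covered quantification, posterior mean TPM, TPM scale, pseudocount, centring, count filters, detection threshold and each library alone.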

Additional observations from a re-analysis of the deposited data

How the results depend on the processing

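Detection of all 9 genes held at 0.1 TPM, in the second quantification and in each library alone; at 5 TPM in both libraries 6 genes remained. The median level of the EGR and NAB genes, 8.48 TPM, was 4.87 by the second quantification and 17.3 after TPM was rescaled to leave out mitochondrial RNA and the 10 most abundant genes, and ranged from 6.43 to 10.5 in the libraries alone. That of the Srf and ELK genes, 10.1 TPM, was 6.29, 9.70 by posterior mean TPM, and 20.5 after rescaling, and ranged from 9.93 to 10.2. Rescaling removes much of the sum to which TPM refers. The difference between libraries of the EGR and NAB median was 0.41 and lay between 0.42 and 0.63 in the 6 alternatives. That of the Srf and ELK median lay between -0.06 and 0.07, so its sign is not settled. Genes past 2-fold higher in replicate 1 numbered 487 (3.18%) at a mean of at least 10 counts. With no filter, where more genes of few counts are tested, they numbered 2110 (3.8%). Egr1 and Egr2 were the 2 members past 2-fold in each alternative. Egr2 only just passed it by the second quantification, at 1.001 on a log2 scale where 2-fold is 1. The share of member TPM outside protein-coding transcripts was 35.6% by the second quantification and 11.8% of expected counts, and 15.1% to 20.2% in the libraries alone; the cause was not tested. No paired analysis was possible because there is 1 group. Depth limits Srf most, at 98 counts in replicate 2.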

Other observations

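NAB2 recruits the NuRD repressor complex through CHD4, and all 11 NuRD subunit genes examined were detected. None was past 2-fold between libraries, 6 were higher and 5 lower in replicate 1, and their median difference was 0.01. Chd4 (62.6 and 55.2 TPM) and Chd3 (50.7 and 46.6 TPM) were the highest, and Hdac2 (7.92 and 9.54 TPM) and Mbd3 (8.50 and 5.29 TPM) the lowest, Mbd3 also having the largest difference (0.49). Nab2, at 12.6 and 11.3 TPM, lay below Chd4 in both libraries. Of 6 textbook EGR1 targets 5 were detected, 4 of them higher in replicate 1 (median 0.37). The cytokine gene Tnf was past 2-fold, from 76.6 and 17.7 TPM, a difference of 1.95. Tgfb1 (102 and 80.7 TPM) was the highest, Pdgfa stood at 5.04 and 3.34 TPM, and the tissue factor gene F3 had 3 and 1 counts. Tnf also belongs to the direct Toll-like receptor response, so this list does not isolate EGR1.

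Of 101 protein-coding genes with a CArG box in the promoter window and a mean of at least 50 scaled counts, 3 were past 2-fold higher in replicate 1 (2.97%): Dusp5, Zfp36 and Egr2. Over the 7807 such genes with any promoter in the table the share was 1.11%. Without Egr2 and Srf the CArG count was 2 of 99 genes (2.02%). For the ETS motif the count was 15 of 2182 genes (0.687%) for the EGR motif 10 of 825 (1.21%) and for the cyclic AMP response element 6 of 254 (2.36%). These are descriptions with counts too small to set apart.

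The nonamer TTATTTATT, an AU-rich element of unstable messenger RNAs, lies in the 3′ UTR of 3 of the 9 genes by their most abundant coding transcript (Nab2, Srf and Elk1), and in 7.81% of 9395 detected protein-coding genes with at least 100 bases of 3′ UTR. It was searched on the transcript's strand. The site in each of Nab2 and Srf is shown because both genes hold a single copy, with the nonamer in capitals.
Nab2-202, base 706 of the 3′ UTR: gtacagtagaTTATTTATTttgttatttt
Srf-201, base 44 of the 3′ UTR: acggcaccacTTATTTATTgttgcctttt
The shorter letters ATTTA, which the nonamer contains, occurred 7 times in Egr3, 3 times in Egr2 and 2 times in Egr1, or 2.65, 2.50 and 1.68 per kilobase, beside a median of 1.39 over the 9395 genes. Of those genes 25.6%, 28.0% and 43.2% were denser than Egr3, Egr2 and Egr1. Nab2 had the highest density of the 9, at 3.99 per kilobase, followed by Nab1 at 3.12. No value here bears on how stable these RNAs were.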
